A study of Mus musculus with 4 samples.

Results

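The genes described here are *Cilp*, *Comp*, *C1qtnf3*, *Thbs1*, *Thbs2*, *Thbs3*, *Tnc*, *Postn*, *Sparc* and *Fn1*, which encode matricellular proteins and secreted proteins of cartilage-like matrix. They are 10 of the 46517 genes in the deposited gene tables, each was found by its symbol, and all 10 are among the 11352 genes that averaged 10 or more exon reads per library. Their messenger RNA was measured in PαS cells, mesenchymal cells that carry PDGFRα and Sca-1 on their surface and were sorted from injury tissue in and around the femur of wild-type C57BL/6J mice, after removal of cells bearing CD45, CD11b, Ter119, CD31 or CD34. The cells were seeded at 3000 per well and kept for 7 days in osteogenic medium, which all conditions shared. The study's methods describe this medium as holding ascorbic acid, β-glycerophosphate and dexamethasone (10 nM), so the cultures without cytokine had these too. The 4 conditions, with 1 library for each, were medium alone, IL-17A (10 ng/ml), BMP-2 (500 ng/ml), and the 2 cytokines combined at these doses. The study's methods give young adult female mice for its bone regeneration experiments, without an age for these cultures in particular, and do not state how many animals each culture came from. The 10 genes were chosen by name with their exon reads and RPKM in these same 4 libraries known, so every value below is a description and no test was run on them.

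Matricellular proteins are secreted into the extracellular matrix, where they tune how cells attach, migrate and receive growth factors rather than carry load. Thrombospondins, tenascins, periostin and osteonectin are typical of this class, are scarce in much resting adult tissue and are made at sites of wounding, fracture and remodelling. Fibronectin is a structural glycoprotein on which this matrix is assembled, and the cartilage-associated members are secreted by chondrocytes and by fibroblastic cells of tendon and periosteum. IL-17A is an inflammatory cytokine of T cells, and BMP-2 is a growth factor of the TGF-β superfamily that drives osteoblast differentiation.

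Levels are given as RPKM, the exon reads of a gene divided by the length of its exons and by the reads assigned to genes, which allows levels of different genes to be set side by side. Differences between libraries are given as ratios of exon reads after scaling by the trimmed mean of M values (TMM), with exact 95% intervals of the Clopper–Pearson type. The cDNA was amplified by PCR and carried no molecular identifiers, so the intervals cover counting error only, and no difference could be checked against replicates. A gene was called 2-fold apart where the interval of its ratio excluded 1 and the ratio itself reached 2 or the inverse of 2. In this bulk RNA, fewer cells of a type and less RNA per cell cannot be told apart. Reads assigned to genes ranged from 4490743 in the library with IL-17A to 5083430 in that with both cytokines. All 5 markers of the sorted phenotype, *Pdgfra* and *Ly6a* (Sca-1) included, were detected in each library, and *Pecam1* (CD31) had no read in any. Of the 5, *Pdgfra* was called lower with BMP-2 than without cytokine, at 0.498 (0.439 to 0.565), with 375 exon reads against 739. *Cd34*, a marker of the cells gated away, held 94 exon reads without cytokine, 44 reads with IL-17A, 12 reads with BMP-2 and none with both.

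The levels of the 10 genes spanned a wide range, from rank 4 to rank 7311 by RPKM within a library. By median level *Sparc* and *Thbs1* were the highest, at 2393 to 2893 RPKM and 508 to 1307 RPKM, and *Thbs3* and *C1qtnf3* were the lowest, at 5.24 to 11.2 RPKM and 3.77 to 30.9 RPKM. *Sparc* stood between rank 4 and rank 6 in all 4 libraries, and the lowest rank was that of *C1qtnf3* with both cytokines. Together the members took 2.52% of all exon reads in the library without cytokine, 2.17% in that with IL-17A, 2.14% in that with BMP-2 and 1.81% in that with both. Without *Sparc* and *Thbs1*, these shares were 0.726%, 0.668%, 0.629% and 0.428%. The sum was thus highest without cytokine and lowest with both cytokines, whether or not the top pair was included.

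**Figure D1:**
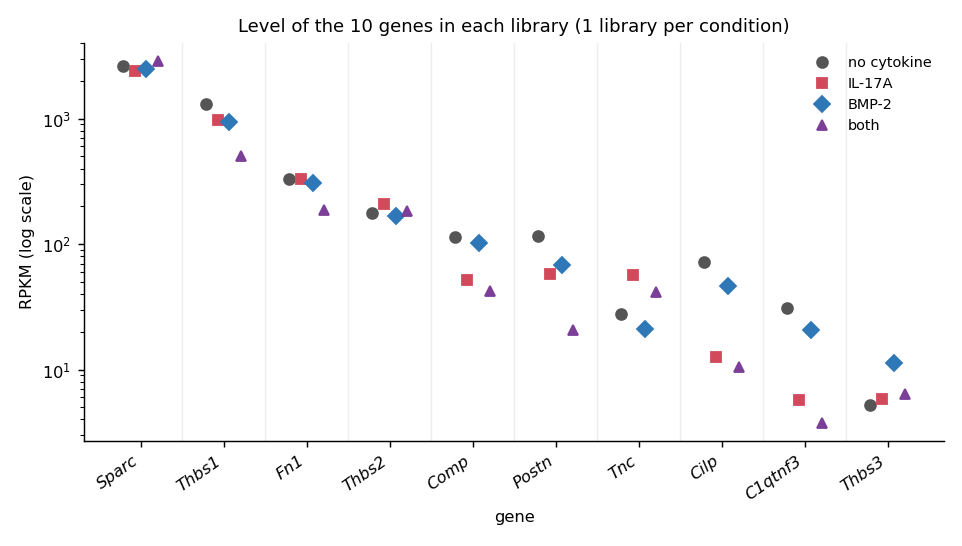
RPKM (log scale) of each of the 10 genes in the 4 libraries, ordered by median level; each point is 1 library and there are no error bars because each condition had 1 library. *Cilp*, *C1qtnf3*, *Comp*, *Postn*, *Thbs1* and *Fn1* are highest without cytokine and lowest with both, *Tnc* is highest with IL-17A, and *Sparc* and *Thbs2* differ little between libraries (1.20-fold and 1.22-fold from lowest to highest).

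The cartilage-associated genes *Cilp*, *C1qtnf3* and *Comp* were all lower in the libraries with IL-17A, with and without BMP-2. *Cilp* (chr9:65265180-65280605, plus strand, mm10) encodes cartilage intermediate layer protein, a glycoprotein of articular cartilage that binds TGF-β. Its level was 71.5 RPKM without cytokine, 12.6 RPKM with IL-17A, 46.3 RPKM with BMP-2 and 10.4 RPKM with both. The exon reads behind these levels were 1516, 241, 999 and 225. Both libraries with IL-17A lay far below both libraries without it, while BMP-2 made a smaller difference. The ratio of scaled reads for IL-17A was 0.173 (0.151 to 0.199) without BMP-2 and 0.219 (0.189 to 0.254) with BMP-2. For BMP-2 the ratio of *Cilp* was 0.647 (0.596 to 0.701) without IL-17A and 0.819 (0.680 to 0.986) with IL-17A, but the latter was 1.06 (0.696 to 1.62) from reads that span an exon junction, so its direction depends on the reads counted. In all, *Cilp* with both cytokines stood at 0.142 (0.123 to 0.163) of its value without cytokine.

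*C1qtnf3* (chr15:10952332-10980150, plus strand) encodes CTRP3, also known as cartducin, a secreted C1q-domain protein first described in growth plate cartilage and also released by adipose tissue. It followed *Cilp* in each library at a lower level. Its level was 30.9 RPKM without cytokine, 5.75 RPKM with IL-17A, 20.8 RPKM with BMP-2 and 3.77 RPKM with both (394, 66, 270 and 49 exon reads). The ratio for IL-17A was 0.183 (0.138 to 0.237) without BMP-2 and 0.177 (0.128 to 0.240) with BMP-2, so the 2 intervals overlapped over most of their width. The ratio of *C1qtnf3* for BMP-2 was 0.673 (0.574 to 0.787) without IL-17A and 0.651 (0.441 to 0.957) with it. These 2 values also lay close together, and the wide second interval reflects the 49 and 66 reads behind it. Its highest library was 8.41 times its lowest, the widest range among the 10 genes.

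*Comp* (chr8:70373548-70382065, plus strand) encodes cartilage oligomeric matrix protein, a pentameric member of the thrombospondin family that binds collagen fibrils in cartilage and tendon. Its level was 115 RPKM without cytokine, 52.2 RPKM with IL-17A, 102 RPKM with BMP-2 and 42.4 RPKM with both (1386, 568, 1251 and 523 exon reads). The order of the libraries was that of *Cilp* and *C1qtnf3*, but the distance between those with and without IL-17A was smaller. The ratio for IL-17A was 0.447 (0.404 to 0.493) without BMP-2 and 0.407 (0.367 to 0.451) with it. BMP-2 made little difference to *Comp*, at 0.886 (0.820 to 0.957) without IL-17A and 0.808 (0.716 to 0.911) with it. Among endothelial and muscle markers, only *Kdr* and *Des* held fewer reads in both libraries with IL-17A than in both without it. *Cilp*, *C1qtnf3* and *Comp* did so too, as did the tendon markers *Tnmd* and *Scx* and the chondrocyte marker *Col2a1*, whose reads are given further below. The tendon markers *Mkx* and *Egr1* and the chondrocyte marker *Sox9* did not, and the chondrocyte markers *Acan* and *Matn1* held no read. In the order none, IL-17A, BMP-2 and both, the endothelial marker *Kdr* held 117, 0, 70 and 0 exon reads and the muscle marker *Des* held 139, 78, 112 and 46, while the endothelial marker *Tek* held 0, 51, 63 and 23. *Emcn*, also endothelial, held 3, 0, 0 and 23, and *Acta1*, the muscle marker with the most reads, held 266, 226, 177 and 168. The summed level of 4 endothelial markers was 2.71, 2.41, 4.17 and 1.80 RPKM, with *Cdh5* at 0 in all, and that of 5 muscle markers was 44.7, 39.8, 30.8 and 25.5 RPKM, with *Myod1* at 0 in all. The part of such cells in the levels of *Cilp*, *C1qtnf3* and *Comp* was not tested.

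The 250 bases before the annotated start are shown for *Cilp* and *C1qtnf3*, the members with the widest range and the most alike pattern, and for *Postn* and *Tnc*, which went in opposite directions with IL-17A. They were taken from RefSeq (GRCm38.p6), in which 7 of the 10 members were matched and *Comp*, *Thbs1* and *Fn1* were not. Each runs 5′ to 3′ on the strand of the gene, in lower case, with capitals marking matches to the motifs named in the next paragraph. The windows are chr9:65264930-65265179 (plus strand) for *Cilp*, chr15:10952082-10952331 (plus strand) for *C1qtnf3*, chr3:54360857-54361106 (plus strand) for *Postn* and chr4:64047016-64047265 (minus strand) for *Tnc*. Where RefSeq lists several starts, the one nearest the deposited start was taken, which is the same base for all but *Postn*, where it lies 2 bases before.
Cilp: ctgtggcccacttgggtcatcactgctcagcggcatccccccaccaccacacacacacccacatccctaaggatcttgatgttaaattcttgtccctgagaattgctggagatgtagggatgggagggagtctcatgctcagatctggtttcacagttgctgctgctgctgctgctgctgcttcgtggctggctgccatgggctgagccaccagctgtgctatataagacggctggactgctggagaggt
C1qtnf3: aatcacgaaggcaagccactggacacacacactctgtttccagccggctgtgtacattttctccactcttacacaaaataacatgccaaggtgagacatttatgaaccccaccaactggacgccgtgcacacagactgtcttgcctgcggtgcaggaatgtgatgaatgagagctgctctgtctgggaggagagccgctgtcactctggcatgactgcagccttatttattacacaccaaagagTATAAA
Postn: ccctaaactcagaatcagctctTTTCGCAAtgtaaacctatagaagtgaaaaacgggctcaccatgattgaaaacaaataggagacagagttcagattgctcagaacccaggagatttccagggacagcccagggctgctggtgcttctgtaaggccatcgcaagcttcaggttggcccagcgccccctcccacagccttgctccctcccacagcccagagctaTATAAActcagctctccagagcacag
Tnc: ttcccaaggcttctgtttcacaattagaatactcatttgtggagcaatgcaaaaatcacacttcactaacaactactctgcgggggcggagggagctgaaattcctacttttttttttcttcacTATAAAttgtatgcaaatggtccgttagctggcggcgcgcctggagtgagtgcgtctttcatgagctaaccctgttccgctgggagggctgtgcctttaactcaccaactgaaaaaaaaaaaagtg

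The letters were searched on both strands for motifs of factors downstream of IL-17A or BMP-2, of the glucocorticoid receptor and of the basal machinery of transcription, with N for any base. These were a strict consensus for NF-κB, found in 0.356% of 32851 mouse promoter windows of this length, TTGCNNAA for C/EBP (9.56%), TGANTCA for AP-1 (6.75%), GGCGCC for the SMAD GC box (9.59%), the palindromic element of the glucocorticoid receptor (0.387%) and TATAAA for the TATA box (12.4%). No 2 of the matches reported here overlapped. In the *Cilp* window none of the 6 was found. Only exact letters were searched, and this window holds TATAAG, which differs from TATAAA in its last base and was not counted. *C1qtnf3* held TATAAA with its first base at position -6 from the start, *Postn* held it at -26 and *Tnc* at -126. *Postn* also held the C/EBP letters on the opposite strand at -228. The *Cilp* and *C1qtnf3* windows thus shared none of the searched letters, which says only that these letters are not shared within these 250 bases.

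The other thrombospondins each behaved differently. *Thbs1* (chr2:118111876-118127133, plus strand) encodes a trimeric thrombospondin that activates latent TGF-β and inhibits angiogenesis. Its level was 1307 RPKM without cytokine, 977 RPKM with IL-17A, 942 RPKM with BMP-2 and 508 RPKM with both (39573, 26644, 29012 and 15677 exon reads). The libraries with a single cytokine lay at about the same lower level, and the library with both was lower again. The ratio of *Thbs1* for IL-17A was 0.734 (0.722 to 0.745) without BMP-2 and 0.526 (0.516 to 0.537) with BMP-2. The ratio for BMP-2 was 0.719 (0.709 to 0.730) without IL-17A and 0.516 (0.506 to 0.526) with it. With both cytokines it stood at 0.379 (0.372 to 0.386) of its value without cytokine.

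*Thbs2* (chr17:14665500-14694262, minus strand), the other trimeric thrombospondin and an inhibitor of angiogenesis, was nearly level. Its level was 178 RPKM without cytokine, 207 RPKM with IL-17A, 167 RPKM with BMP-2 and 183 RPKM with both (5260, 5517, 5017 and 5506 exon reads). The ratio for IL-17A was 1.14 (1.10 to 1.19) without BMP-2 and 1.07 (1.03 to 1.11) with it, and that of both over none was 1.00 (0.963 to 1.04). The libraries with no cytokine and with both therefore did not differ beyond counting error for *Thbs2*.

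*Thbs3* (chr3:89215180-89226837, plus strand) encodes a pentameric thrombospondin found in developing skeleton. Among the 10 genes it alone was called higher with BMP-2, at 5.24 RPKM without cytokine, 5.82 RPKM with IL-17A, 11.2 RPKM with BMP-2 and 6.36 RPKM with both (126, 126, 275 and 156 exon reads). The BMP-2 library stood apart, and the other 3 libraries did not differ from each other beyond counting error. The ratio of *Thbs3* for BMP-2 was 2.14 (1.73 to 2.67) without IL-17A and 1.09 (0.853 to 1.38) with IL-17A. For IL-17A the ratio was 1.09 (0.844 to 1.41) without BMP-2 and 0.552 (0.451 to 0.675) with BMP-2. The BMP-2 library was also the highest in the summed level of 6 macrophage markers, at 284 RPKM against 72.6 to 101 RPKM in the others, of which *Lyz2* made up 269 RPKM. In the order none, IL-17A, BMP-2 and both, *Cd68* held 33, 0, 50 and 10 exon reads, *C1qa* held 8, 10, 22 and 0, and *Itgam* (CD11b), a marker of the cells gated away, held 2, 0, 29 and 0, so these 3 were highest in the BMP-2 library too. *Csf1r* was lowest there, with 130, 108, 61 and 183 reads, *Adgre1* and *Mrc1* were at 0 there, and *Ptprc* (CD45) held 4, 1, 4 and 0. The part of these cells in the level of *Thbs3* was not tested.

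*Postn* (chr3:54361109-54391037, plus strand) encodes periostin, a fasciclin-domain protein of periosteum, tendon and healing bone that binds integrins and promotes collagen cross-linking. Its level was 115 RPKM without cytokine, 57.8 RPKM with IL-17A, 68.6 RPKM with BMP-2 and 20.8 RPKM with both (5004, 2259, 3026 and 922 exon reads). Each cytokine alone went with a lower level, and the library with both was the lowest by a wide margin. The ratio of *Postn* for IL-17A was 0.492 (0.468 to 0.517) without BMP-2 and 0.297 (0.275 to 0.320) with BMP-2. The ratio for BMP-2 was 0.593 (0.567 to 0.621) without IL-17A and 0.358 (0.331 to 0.387) with it. With both, it stood at 0.176 (0.164 to 0.189) of the value without cytokine.

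*Tnc* (chr4:63959785-64047015, minus strand) encodes tenascin-C, a hexameric glycoprotein induced in wounds and inflamed tissue. Among the 10 genes it alone was called higher with IL-17A. Its level was 27.9 RPKM without cytokine, 57.1 RPKM with IL-17A, 21.1 RPKM with BMP-2 and 41.1 RPKM with both (1080, 1992, 832 and 1625 exon reads). Both libraries with IL-17A were above both without it, and within each pair the library with BMP-2 was the lower. The ratio of *Tnc* for IL-17A was 2.01 (1.87 to 2.17) without BMP-2 and 1.90 (1.75 to 2.07) with BMP-2. The ratio for BMP-2 was 0.756 (0.690 to 0.828) without IL-17A and 0.715 (0.670 to 0.764) with it.

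*Sparc* (chr11:55394500-55420080, minus strand) encodes osteonectin, a collagen-binding and calcium-binding protein abundant in bone. Its level was 2635 RPKM without cytokine, 2393 RPKM with IL-17A, 2476 RPKM with BMP-2 and 2893 RPKM with both (44226, 36176, 42261 and 49516 exon reads). It was slightly lower with either cytokine and slightly higher with both, the only member with its highest library under both cytokines. The ratio of *Sparc* for both over none was 1.07 (1.06 to 1.08), but 1.22 (1.20 to 1.24) from spliced reads, so its size depends on the reads counted. The ratio of *Sparc* for IL-17A was 0.891 (0.879 to 0.904) without BMP-2 and 1.14 (1.13 to 1.16) with BMP-2.

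*Fn1* (chr1:71585520-71653200, minus strand) encodes fibronectin, which cells assemble into fibrils through integrin α5β1. Its level was 329 RPKM without cytokine, 328 RPKM with IL-17A, 304 RPKM with BMP-2 and 188 RPKM with both (19144, 17223, 18021 and 11183 exon reads). Only the library with both cytokines was clearly lower, and the other 3 were close together, those with no cytokine and with IL-17A alone within counting error. The ratio of *Fn1* for IL-17A was 0.980 (0.960 to 1.00) without BMP-2 and 0.604 (0.590 to 0.619) with BMP-2. The ratio for BMP-2 was 0.924 (0.905 to 0.943) without IL-17A and 0.569 (0.556 to 0.583) with it.

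IL-17A alone was compared with no cytokine, and IL-17A with BMP-2 was compared with BMP-2 alone. These 2 comparisons share no library, but the members were chosen with all 4 libraries known. *Cilp*, *C1qtnf3*, *Comp* and *Postn* were called lower with IL-17A without BMP-2, which makes 4 of 10 members against 9.91% of the 11352 genes. *Tnc* was called higher, 1 of 10 members against 10.9% of those genes. With BMP-2 present, *Cilp*, *C1qtnf3*, *Comp* and *Postn* were again called lower, 4 of 10 against 14.1%, and no member was called higher, against 12.9%. In both states together, these 4 members were called lower, against 2.93% of all genes, and none was called higher, against 2.77%. From spliced reads, *Postn* (0.501) and *Tnc* (1.95) were not called for IL-17A without BMP-2, which left 3 members called there in place of 5. With the RPKM scaling *Postn* (0.501) was not called there either. Under either alternative *Postn* was thus not called lower in both states. The median log2 ratio of the 10 members for IL-17A was -0.31 without BMP-2 and -0.89 with BMP-2, and that of all genes was 0.00 in each. The ratios of *Postn*, *Thbs1*, *Fn1* and *Thbs3* for IL-17A were lower with BMP-2 than without it, and their intervals did not overlap. For *Thbs2*, at 1.07 against 1.14, the intervals overlapped, but the interval of the quotient of these ratios excluded 1. The ratio of *Tnc* with BMP-2 was just short of 2-fold, at 1.90.

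**Figure D2:**
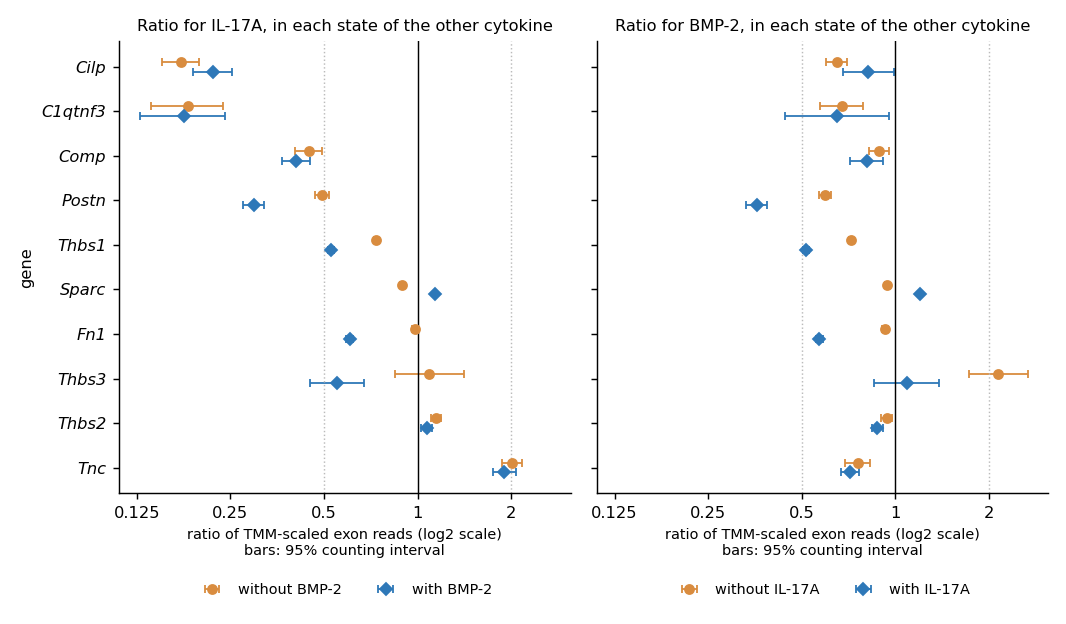
Ratios of TMM-scaled exon reads of the 10 genes (log2 axis) for IL-17A (left) and BMP-2 (right), each without the other cytokine (circles) and with it (diamonds); bars are exact 95% counting intervals and dotted lines mark 2-fold. *Cilp* and *C1qtnf3* lie at 0.173 to 0.219 for IL-17A in both states, *Tnc* at 2.01 and 1.90, and *Thbs3* passes 2-fold for BMP-2 only without IL-17A.

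Set beside well-measured genes, *Cilp* and *C1qtnf3* were among the lowest for IL-17A. Of the 4423 genes that averaged 200 or more exon reads, 0.0226% had a lower ratio than *Cilp* without BMP-2 and 0.226% with BMP-2. For *C1qtnf3* these shares were 0.0452% and 0.158%. The 4423 genes include 8 of the members, since *C1qtnf3* and *Thbs3* averaged fewer than 200 reads. *C1qtnf3* is therefore ranked against genes of greater depth than its own. For *Comp* they were 1.04% and 1.85%, and for *Postn* they were 1.72% and 0.610%. A higher ratio than that of *Tnc* was held by 2.01% of these genes without BMP-2 and 4.73% with it. These ranks use the values that chose the members and are given as a description.

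**Figure D3:**
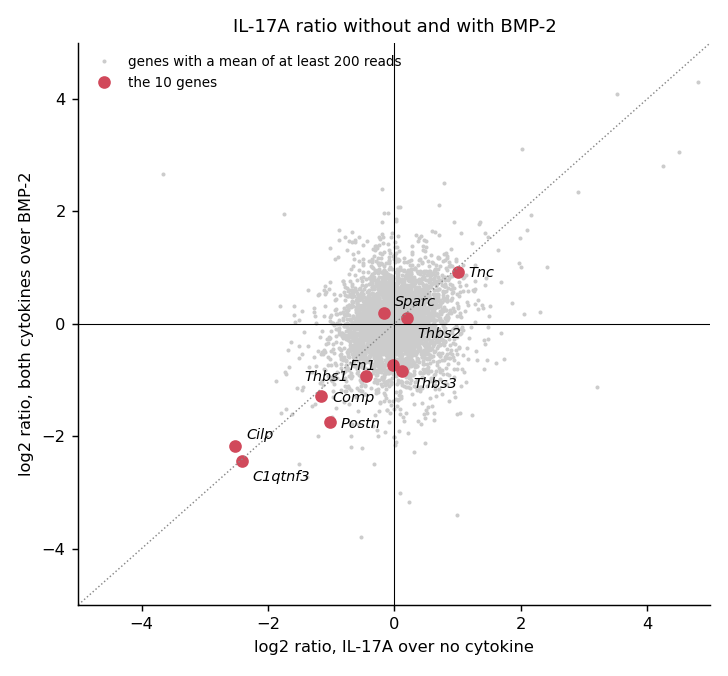
Log2 ratio for IL-17A without BMP-2 (horizontal) against that with BMP-2 (vertical); grey points are 4415 other genes averaging 200 or more exon reads, of which 1 lies outside the axes, red points are the 10 genes, and the dotted line marks equal ratios. *Cilp* and *C1qtnf3* lie at the lower left near the line, *Tnc* at the upper right, and *Postn*, *Thbs1*, *Fn1* and *Thbs3* below the line.

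BMP-2 alone was compared with no cytokine, and BMP-2 with IL-17A was compared with IL-17A alone. The members were mostly lower with BMP-2, by less than 2-fold. *Thbs3* was the only member called higher without IL-17A, 1 of 10 against 10.7% of the 11352 genes, and none was called lower, against 11.7%. With IL-17A present, *Postn* was called lower, 1 of 10 against 13.5%, and none was called higher, against 10.1%. No member was called in the same direction in both states, against 2.11% of genes higher and 2.98% lower. Past counting error alone, 9 members were lower and 1 was higher with BMP-2 without IL-17A, where 30.9% of all genes were lower and 29.9% higher. These shares are not matched for depth, and deeper genes have narrower intervals. Of the 10 members, 8 averaged 200 or more exon reads, against 4423 of the 11352 genes. Ratios as near to 1 as those of *Sparc* (0.938), *Thbs2* (0.936) and *Fn1* (0.924) thus counted as lower. Whether members were lower more often than genes of like depth was not tested. The median log2 ratio of the members for BMP-2 was -0.29 without IL-17A and -0.39 with IL-17A, and that of all genes was 0.00 in each.

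With both cytokines over none, *Thbs1*, *Postn*, *Comp*, *Cilp* and *C1qtnf3* were called lower, 5 of 10 members against 14.1% of the 11352 genes, and no member was called higher, against 12.2%. The ratio of *C1qtnf3* was 0.119 (0.0864 to 0.160), the lowest of the 10, and that of *Comp* was 0.361 (0.325 to 0.399). *Fn1* stood at 0.558 (0.545 to 0.571), *Sparc* at 1.07 (1.06 to 1.08), *Thbs3* at 1.18 (0.930 to 1.51) and *Tnc* at 1.44 (1.33 to 1.55). The median log2 ratio of the members was -1.12, and that of all genes was 0.00. This comparison shares its control library with IL-17A over none and BMP-2 over none, so the 3 are not independent.

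Whether the effect of both cytokines equals the product of their single ratios was read from the log2 of their quotient, the departure from additivity, which is 0 when it does. For *C1qtnf3*, *Comp* and *Tnc* the counting interval of the departure included 0, with values of -0.03 (-0.61 to 0.55), -0.13 (-0.34 to 0.07) and -0.08 (-0.24 to 0.08). *Thbs3*, *Postn*, *Fn1* and *Thbs1* were lower with both than that product. Their departures were -0.97 (-1.42 to -0.51), -0.73 (-0.86 to -0.60), -0.70 (-0.74 to -0.65) and -0.48 (-0.52 to -0.44). *Thbs2* lay just below the product, at -0.10 (-0.17 to -0.02). *Sparc* and *Cilp* were higher than the product, at 0.36 (0.33 to 0.38) and 0.34 (0.06 to 0.63). From spliced reads alone the departure was 0.94 for *Cilp*, 0.50 for *Sparc* and -0.41 for *Thbs1*, in the same directions. Departures of this size are common in these libraries, since the 4423 well-measured genes had an SD of 0.68 and 13.2% of them lay farther from 0 than *Thbs3*. For *Postn* this share was 23.0%, for *Fn1* 24.9%, for *Thbs1* 40.0%, for *Sparc* 52.2% and for *Cilp* 53.4%. *Thbs3* averaged fewer than 200 exon reads, so its share is taken against genes of greater depth than its own. The library with both cytokines also had the highest summed level of 4 adipocyte markers, at 724 RPKM against 332 to 393 RPKM, and of 6 osteoblast markers, at 88.0 RPKM against 17.2 to 56.8 RPKM. Of these sums with both cytokines, *Fabp4* made up 668 RPKM and *Alpl* 70.0 RPKM. All 4 adipocyte markers were detected in each library, of which *Fabp4*, *Plin1* and *Adipoq* were highest with both, while *Pparg* held 12.3 RPKM with both against 15.4 RPKM with none. Of the osteoblast markers, *Alpl* and *Sp7* were highest with both, *Ibsp* was at 0 in all libraries, *Bglap* and *Bglap2* were at 0 with both cytokines, and *Runx2* held 80 exon reads with both against 103 with none. The part of these cells in the departures was not tested.

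**Figure D4:**
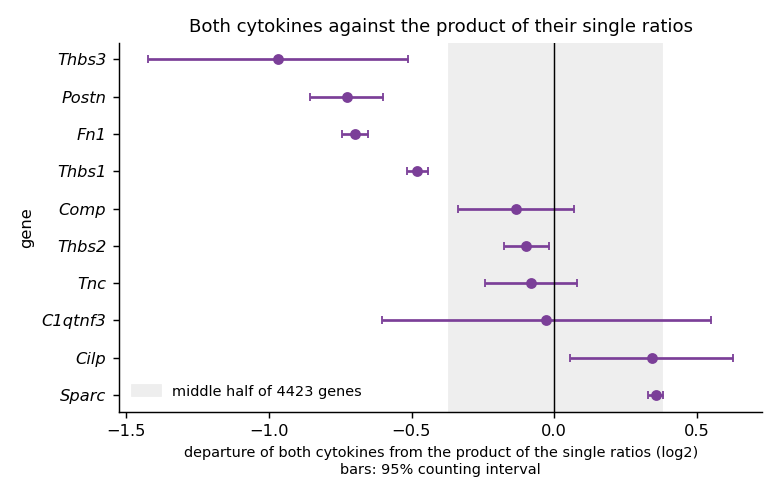
Departure of the library with both cytokines from the product of the single-cytokine ratios (log2) for the 10 genes; bars are 95% counting intervals and the grey band runs from the lower to the upper quartile of 4423 well-measured genes (-0.37 to 0.38). *Thbs3*, *Postn*, *Fn1* and *Thbs1* lie below the band, and the other 6 genes lie inside it. From spliced reads the departures of *Cilp* and *Sparc* were 0.94 and 0.50, that of *Cilp* from 44 to 304 reads per library. The band is from total exon reads and is not matched to spliced reads.

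The ratios were also taken from reads unique to a gene and from spliced reads, which span an exon junction, and most were close to those from all exon reads. Unique reads made up 97.9 to 100% of the exon reads of 8 members, 89.7 to 92.1% of those of *Thbs3* and 60.6 to 66.3% of those of *Tnc*. From unique reads the ratio of *Tnc* for IL-17A was 2.06 without BMP-2 and 1.93 with it, and from spliced reads it was 1.95 and 1.98. Its other ratios moved more. That of both over none was 1.44 from all exon reads, 1.57 from unique reads and 1.58 from spliced reads. That of BMP-2 over none was 0.756, 0.815 and 0.797 in the same order. The reads do not record strand, and *Thbs3* lies wholly within the deposited span of *Mtx1* on the opposite strand, with 318 of its 4823 exonic bases inside *Mtx1* exons. *Mtx1* held 193, 257, 201 and 212 exon reads in the order none, IL-17A, BMP-2 and both. From spliced reads the ratio of *Thbs3* for BMP-2 without IL-17A was 2.12, and the part of *Mtx1* reads in the level of *Thbs3* was not tested. *Tnc* overlaps the antisense gene *8030451A03Rik*, which had no exon read in any library and 4, 27, 0 and 32 intron reads in the order none, IL-17A, BMP-2 and both. These intron reads were higher with IL-17A, as *Tnc* was, and their part in the level of *Tnc* was not tested. Spliced reads were 17.2 to 23.1% of the exon reads of *Cilp*, the lowest share among the 10, and gave a ratio of 0.300 for IL-17A with BMP-2 in place of 0.219.

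**Figure D5:**
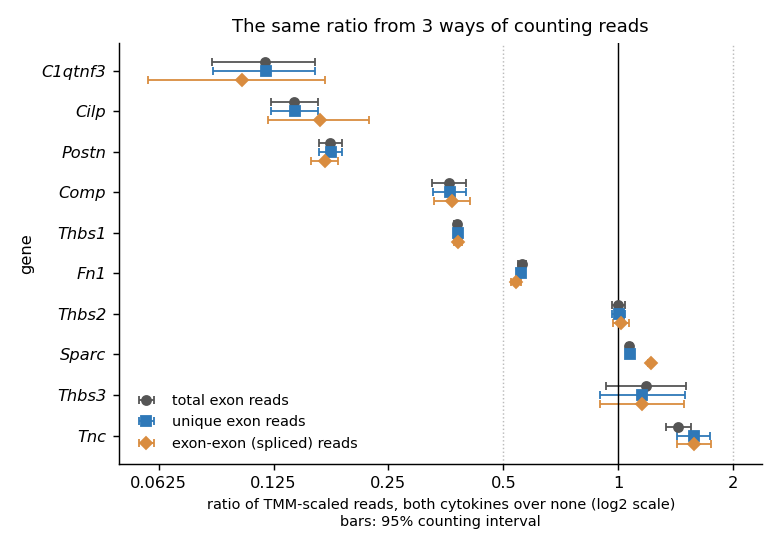
Ratio of both cytokines over none for the 10 genes (log2 axis) from total exon reads, unique exon reads and spliced reads, each scaled by its own TMM; bars are exact 95% counting intervals. The 3 estimates lie close together for each gene, with the largest gaps for *Cilp* (0.142 and 0.165 from total and spliced reads) and *C1qtnf3* (0.119 and 0.103). For *Sparc* the intervals from total and spliced reads do not overlap, at 1.07 (1.06 to 1.08) and 1.22 (1.20 to 1.24).

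Among the members, the pattern over the 4 libraries was most alike for *C1qtnf3* and *Cilp*, at a Euclidean distance of 0.24 between their centred log2 values. *Sparc* and *Thbs2* followed at 0.35, since neither varied much, and *Fn1* and *Thbs1* at 0.41. Over all 4423 genes averaging 200 or more reads, the nearest to *C1qtnf3* was again *Cilp*, followed by *Radil* at 0.65 and *Smpd3* at 0.78. *C1qtnf3* averaged fewer than 200 reads and so was not among the genes compared with *Cilp*. The nearest to *Cilp* among those were *Tsc22d3* at 0.73, *Pdk4* at 0.77 and *Radil* at 0.77. *Tsc22d3* held 2169, 604, 1563 and 558 exon reads in the order none, IL-17A, BMP-2 and both, *Pdk4* held 438, 115, 396 and 134, *Radil* held 351, 112, 323 and 57, and *Smpd3* held 1762, 620, 1705 and 264. All 4 genes were lower with IL-17A in both states, as *Cilp* was. With 4 libraries, such a likeness describes these libraries only.

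Related genes were followed in 6 lists, of which 91 genes were found in the files and 67 were measured. Among 5 paralogs of the thrombospondins, tenascins and *Cilp*, 2 were measured. *Thbs4*, a pentameric thrombospondin of tendon and muscle, held 43.2 RPKM without cytokine, 27.4 RPKM with IL-17A, 47.0 RPKM with BMP-2 and 10.3 RPKM with both. As with *Comp*, both libraries with IL-17A were the lower ones, and the ratio of *Thbs4* for IL-17A was 0.623 (0.550 to 0.705) without BMP-2 and 0.215 (0.181 to 0.254) with it. *Tnxb*, a tenascin of loose connective tissue, held only 4, 29, 12 and 9 exon reads.

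Of 16 measured receptors of matricellular proteins, 1 was called higher and 1 lower with IL-17A without BMP-2, and 1 higher and 3 lower with BMP-2 present. Of all 11352 genes, 10.9% were called higher and 9.91% lower without BMP-2, and 12.9% and 14.1% with it. *Itga5* and *Itgb1*, the receptors with the highest mean RPKM, differed by less than 2-fold between any of the libraries. *Sdc1*, a heparan sulphate proteoglycan, held 58.0 RPKM without cytokine, 121 RPKM with IL-17A, 100.1 RPKM with BMP-2 and 152 RPKM with both, and was the receptor called higher with IL-17A without BMP-2, at 2.05, and with both over none, at 2.56. *Itga5*, the α chain of the fibronectin receptor, held 245, 338, 293 and 264 RPKM in the order none, IL-17A, BMP-2 and both. *Itgb1*, its β chain, held 268, 242, 206 and 168 RPKM in the same order. *Itga11*, which pairs with *Itgb1* to bind collagen, was the receptor called lower with BMP-2 in both states, with 255, 129, 116 and 40 exon reads and ratios of 0.446 (0.355 to 0.558) and 0.272 (0.186 to 0.390). The median log2 ratio of the receptors for IL-17A was -0.08 without BMP-2 and -0.18 with it, against 0.00 for all genes.

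Among 26 measured genes of other matricellular and fibulin-type proteins, 3 were called lower and none higher with IL-17A without BMP-2, and 3 lower and 1 higher with BMP-2 present, with median log2 ratios of -0.03 and -0.22. The shares of all genes called lower and higher with IL-17A were 9.91% and 10.9% without BMP-2 and 14.1% and 12.9% with it. With BMP-2, 5 were called lower without IL-17A and 6 with it, and none higher. Of all genes, 11.7% and 13.5% were called lower in these 2 comparisons, and 10.7% and 10.1% higher. *Efemp2* and *Fbln2*, fibulins of elastic fibres, were the most abundant. *Efemp2* was nearly level at 651 to 767 RPKM, and *Fbln2* was lowest with both cytokines, at 378 RPKM against 498 to 571 RPKM. *Eln*, which encodes elastin, held 219, 71, 43 and 26 exon reads in the order none, IL-17A, BMP-2 and both, and was called lower with BMP-2 in both states. *Mfap4*, a microfibril-associated protein, held 81, 22, 58 and 0 exon reads and was called lower with IL-17A in both states. *Fbn2*, a fibrillin of microfibrils, held 53, 58, 6 and 11 exon reads and was called lower with BMP-2 in both states.

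Genes of cartilage proper were detected only in part. Of 20 listed, 7 were measured and 8 held no read in any library, among them the chondrocyte markers *Acan* and *Matn1*. The chondrocyte marker *Sox9* was measured in every library, at 177, 155, 152 and 199 exon reads in the order none, IL-17A, BMP-2 and both. With IL-17A, 2 were called higher and 1 lower without BMP-2, and 1 higher and 1 lower with it, with median log2 ratios of -0.32 and 0.13. All genes stood at 10.9% higher and 9.91% lower without BMP-2, and at 12.9% and 14.1% with it. *Col2a1*, the main collagen of cartilage, held 436, 320, 696 and 125 exon reads in the order none, IL-17A, BMP-2 and both. It was lower with IL-17A mainly in the presence of BMP-2, at 0.175 (0.143 to 0.212) against 0.800 (0.690 to 0.926) without it. *Matn2*, a matrilin of many connective tissues, was lowest without cytokine, at 5.77 RPKM against 10.5 to 12.7 RPKM. *Sox5*, a chondrogenic transcription factor, held 13 reads without cytokine, 30 with IL-17A and none in either library with BMP-2. Of 4 tendon markers, *Tnmd* held 12, 0, 5 and 0 reads and *Scx* held 6, 2, 3 and 0 in the order none, IL-17A, BMP-2 and both. *Mkx* held 0, 7, 0 and 6 reads, all with IL-17A, and *Egr1*, which many cell types express, held 239, 291, 100 and 198.

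Of 5 measured C1q/TNF-related genes, none was called with IL-17A without BMP-2, and 2 were called higher and 2 lower with BMP-2 present, with median log2 ratios of -0.42 and -0.06. The shares of all genes were 10.9% higher and 9.91% lower without BMP-2, and 12.9% and 14.1% with it. *C1qtnf2*, a close relative of *C1qtnf3*, held 138, 101, 164 and 37 exon reads in the order none, IL-17A, BMP-2 and both, with a ratio for IL-17A of 0.798 (0.611 to 1.04) without BMP-2 and 0.220 (0.149 to 0.315) with it. *C1qtnf6* differed less, at 17.3, 13.1, 12.1 and 11.9 RPKM. Of 11 measured proteases that cleave matricellular proteins, 2 were called higher and 1 lower with IL-17A without BMP-2, and 1 higher and 2 lower with BMP-2 present, with median log2 ratios of 0.13 and -0.07. These counts stand beside the same shares of all genes. *Bmp1*, a procollagen proteinase, held 75.6, 113, 81.4 and 93.3 RPKM, and *Adamts2*, a procollagen N-proteinase, held 46.3, 51.7, 60.7 and 59.1 RPKM. *Adamts7*, a protease known to cleave COMP, held 26, 55, 6 and 0 exon reads, and *Tll1*, a relative of *Bmp1*, held 31, 51, 3 and 19. Both were called lower with BMP-2 in both states.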

How the data were processed

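Total RNA of sorted PαS cells cultured for 7 days was extracted with a Maxwell 16 kit, and full-length cDNA was made and amplified with a SMART-Seq v4 kit, sequenced on an Ion Proton and analysed in CLC Genomics Workbench by the authors. The submitters' processing notes name the build mm10. The version and settings of the program are not stated in the sources used. The deposited files hold, for each of 46517 genes, counts of total, unique and exon-exon reads, and RPKM that the authors computed from exon reads, corrected for exon length and for the total of gene reads in each library. Columns of the authors' own ratios between libraries were not used.

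Exon read counts of the 4 libraries (4190612 to 4719412 in all) were brought to a common scale with the TMM factors of edgeR 4.0.16 in R 4.3.3, and ratios with exact 95% intervals were computed in 5 comparisons (Python 3.11.15, numpy 2.4.6, pandas 2.3.3, scipy 1.17.1, with figures in matplotlib 3.10.9), over the 11352 genes that averaged 10 or more exon reads. The intervals were checked on counts simulated as independent draws, without PCR duplication. This check covers the computation only, and not how well the intervals hold in these libraries. The departure from additivity used a pseudocount of 0.5 on CPM. With 1 library per condition no test was run. The 10 genes and the 6 lists were chosen with earlier results of these data known.

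Named beside the 10 genes are, from each list, up to 4 members at least 2-fold apart in the same direction in both states of the other cytokine and up to 2 with the highest mean RPKM, then for the 2 members with the widest range the 3 genes nearest in pattern, and overlapping genes with at least 10 exon reads. *8030451A03Rik*, below that limit, was named after its values were seen, as were *Acan*, *Matn1*, *Sdc1* and the cell type markers given beside the results. Alternatives were DESeq2 (1.42.0) size factors, the RPKM scaling, TMM without the 100 most abundant genes, unique or exon-exon reads, no filter, a 1.5-fold limit and a pseudocount of 5. Promoter letters are those of RefSeq (GRCm38.p6, the assembly that mm10 denotes).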

Additional observations from a re-analysis of the deposited data

Results flagged for a closer look

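*Sparc* went in opposite directions in the 2 states of the other cytokine. Its ratio for IL-17A was 0.891 (IL-17A over none) without BMP-2 and 1.14 (both over BMP-2) with BMP-2. Its ratio for BMP-2 was 0.938 (BMP-2 over none) without IL-17A and 1.20 (both over IL-17A) with IL-17A. All 4 ratios lie within 1.5-fold of 1, each rests on 1 library per condition, and the difference between the states was not tested.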

How the results depend on the processing

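No paired analysis was possible because each condition had 1 library, and for the same reason no library could be left out of a group. Of 300 alternative ratios of the 10 genes, 297 lay on the same side of 1 as reported, and the largest moved by a factor of 1.37. The exceptions were *Cilp* with both cytokines over IL-17A, which was 1.06 (0.696 to 1.62) from exon-exon reads in place of 0.819, and *Thbs2* with both over none, which was 0.999 without the 100 most abundant genes and 0.995 without a filter in place of 1.00. From exon-exon reads, 3 members were called 2-fold apart for IL-17A over none in place of 5, since *Postn* (0.501) and *Tnc* (1.95) fell just short. With the RPKM scaling *Postn* (0.501) also fell just short there, and *Tnc* (2.05) did not. With a limit of 1.5-fold, the members called numbered 8 for both over BMP-2, 3 for BMP-2 over none and 4 for both over IL-17A. At that limit 4117 of all genes were called for IL-17A over none, 4868 for both over BMP-2, 4208 for BMP-2 over none, 4491 for both over IL-17A and 4849 for both over none. From exon-exon reads the departure from additivity was 0.94 in place of 0.34 for *Cilp*, 0.50 in place of 0.36 for *Sparc* and -0.41 in place of -0.48 for *Thbs1*, and the cause was not tested. Depth limits *C1qtnf3* and *Thbs3* most, with 49 to 394 and 126 to 275 exon reads.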
